A study of Mus musculus with 7 samples.

Results

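Cytochrome P450 genes were examined in kidneys of control mice, of diabetic mice and of diabetic mice given an SGLT2 inhibitor. The members were all protein-coding genes of the deposited gene table whose symbol is Cyp followed by a family number and a subfamily letter, without the vitamin D genes Cyp27b1 and Cyp24a1. This gave 68 of the 17537 genes in the table, 35 in the Cyp2 family, 17 in the Cyp4 family and 16 in other families. Symbols of the same form belong to 97 protein-coding genes in the GENCODE M21 annotation of mouse genome build GRCm38, and 29 of those were not analysed here.

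All mice were C57BL/6, labelled male and 8 to 10 weeks old when the experiment began, while the study's methods name both sexes. The control group (C, n = 3, replicates 2, 8 and 9) received buffer only, which the methods give as citrate. The diabetic group (DM-22, n = 2) received streptozotocin, a toxin of insulin-producing beta cells, at 60 mg/kg on 5 days and stayed hyperglycemic until week 22. The intervention group (DM+SGLT2i, n = 2) received the same streptozotocin and, from week 16 and for 6 weeks, dapagliflozin at 25 mg/kg in the drinking water, an inhibitor of glucose reuptake in the proximal tubule. No nondiabetic mice given the drug are among these 7 libraries, and each library came from 1 mouse.

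P450 enzymes are heme proteins that insert oxygen into fatty acids, sterols, retinoids and drugs. Microsomal P450s take electrons from P450 reductase (Por) and mitochondrial ones from ferredoxin (Fdx1). In kidney, Cyp4a enzymes of the proximal tubule hydroxylate arachidonic acid at its end into metabolites that constrict vessels and alter salt transport, whereas Cyp2c and Cyp2j enzymes make epoxides with largely opposite vascular effects. Several mouse kidney P450 genes are known to follow androgens, Cyp4a12a among them, and Cyp4a10 and Cyp4a14 are classic targets of the lipid sensor PPAR alpha.

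Expression is given in CPM, the read count of a gene relative to the size of its library, after the authors' TMM scaling. Libraries held 46456125 to 56541594 reads on listed genes, so 1 read was worth 0.0180 to 0.0231 CPM, and these figures cover counting error only. The Y-linked genes Ddx3y, Uty, Kdm5d and Eif2s3y stood between 11 and 62.2 CPM in all libraries. Kidney markers were present throughout, with the 10 proximal tubule markers summing to 7669 to 20920 CPM. C replicate 2 stood apart from the other controls: over 13976 genes its median absolute difference from C replicate 8 was 0.41 on the log2 scale, against 0.11 between C replicates 8 and 9. The 6 tubular injury markers summed to 380.5, 132 and 128 CPM in C, 256 and 179 CPM in DM-22, and 244 and 229.6 CPM in DM+SGLT2i. Lcn2, an injury marker of the distal tubule, stood at 74.95 CPM in C replicate 2 and 52.7 CPM in DM-22 replicate 1, against 0.926 and 0.983 CPM in the other controls, and Havcr1, the proximal injury marker KIM-1, at 29.5 CPM in C replicate 2 against 1.98 and 1.84 CPM in the other controls. The part of tubular injury in the P450 levels was not tested. Results are given with all 3 controls and without C replicate 2. In each list of 7 values the order is C replicates 2, 8 and 9, then DM-22 replicates 1 and 2, then DM+SGLT2i replicates 1 and 2.

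Upstream sequences are shown for 6 members whose results are described further on. These are 4 neighbouring Cyp2c genes that varied together between mice, and Cyp1a1 and Cyp1b1, the aryl hydrocarbon receptor genes of the set. RefSeq promoter windows (build GRCm38.p6) were matched by symbol for 52 of the 68 members. Of the others, named only, are Cyp17a1, Cyp2c23, Cyp2d12, Cyp2d22, Cyp2d34, Cyp2j7, Cyp2u1, Cyp39a1, Cyp4a10, Cyp4a12a, Cyp4a12b, Cyp4a14, Cyp4a31, Cyp4f17, Cyp4x1 and Cyp7b1. Each run below is the 140 bases before the annotated start, 5′ to 3′ on the gene's strand. In the Cyp2c genes the capitals mark CAAAGTCCA, a sequence known to be bound by HNF4, the nuclear receptor of the proximal tubule encoded by Hnf4a.
Cyp2c69, chr19:39886770-39886909, minus strand: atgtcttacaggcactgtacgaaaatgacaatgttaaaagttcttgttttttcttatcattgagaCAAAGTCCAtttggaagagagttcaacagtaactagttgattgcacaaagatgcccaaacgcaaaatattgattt
Cyp2c68, chr19:39741102-39741241, minus strand: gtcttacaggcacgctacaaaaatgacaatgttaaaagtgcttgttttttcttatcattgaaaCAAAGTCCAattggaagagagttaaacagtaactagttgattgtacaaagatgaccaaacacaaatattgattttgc
Cyp2c40, chr19:39812815-39812954, minus strand: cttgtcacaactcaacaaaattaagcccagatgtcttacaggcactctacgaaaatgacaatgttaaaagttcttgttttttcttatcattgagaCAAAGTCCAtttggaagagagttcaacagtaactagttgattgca
Cyp2c67, chr19:39649043-39649182, minus strand: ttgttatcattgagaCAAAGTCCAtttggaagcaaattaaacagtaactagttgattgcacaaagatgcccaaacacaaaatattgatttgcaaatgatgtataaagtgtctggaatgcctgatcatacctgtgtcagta
In Cyp1a1 and Cyp1b1 the capitals mark GCGTG, the core bound by the aryl hydrocarbon receptor, which lies on the opposite strand in Cyp1b1 and is therefore printed there as CACGC.
Cyp1a1, chr9:57697473-57697612, plus strand: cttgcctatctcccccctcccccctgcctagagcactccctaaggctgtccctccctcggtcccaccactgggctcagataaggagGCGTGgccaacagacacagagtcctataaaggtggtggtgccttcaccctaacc
Cyp1b1, chr17:79715062-79715201, minus strand: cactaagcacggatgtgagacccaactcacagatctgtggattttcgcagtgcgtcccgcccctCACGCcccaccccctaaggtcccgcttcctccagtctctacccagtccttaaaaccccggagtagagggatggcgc

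Both strands of the 250 bases before each start were searched for 5 motifs, and none of these motifs contains another. CAAAGTCCA lay in 7 of the 52 members (Cyp2c40, Cyp2c65, Cyp2c67, Cyp2c68, Cyp2c69, Cyp3a11 and Cyp8b1) and in 0.384% of all 32851 windows. Cyp2c40 and Cyp2c69 were identical over the 69 bases centred on the motif. Pairs of the printed Cyp2c genes shared at least 63 of these bases, so their matches are not independent. Cyp2c65 was not compared. GCGTG lay in 13 members and in 28.2% of all windows. TGTTCT, a half-site of steroid receptors, lay in 10 members, Cyp4b1 and Cyp4a32 included, and in 16.1% of all windows. AGGTCA, the half-site of many nuclear receptors, lay in 8 members and 14% of windows, and TTATGTAA, bound by the clock output factors Dbp, Tef and Hlf, in 0 members and 0.819% of windows. A match describes letters in a window and is no measured binding site.

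The P450 genes together took 0.765%, 1.29% and 1.32% of reads in C, 0.828% and 1.35% in DM-22, and 0.914% and 0.969% in DM+SGLT2i. The total was thus low in C replicate 2, in DM-22 replicate 1 and in both DM+SGLT2i libraries, and the groups overlapped. Cyp4 genes summed to 4108, 6683 and 6655 CPM in C, 3503 and 8164 CPM in DM-22, and 3990 and 4769 CPM in DM+SGLT2i. Cyp2 genes summed to 2971, 6083 and 6166 CPM in C, 4078 and 6770 CPM in DM-22, and 4208 and 4751 CPM in DM+SGLT2i. Cyp2 and Cyp4 totals were both lower in those 4 libraries than in the other 3, whereas the other families summed to between 169 CPM, in DM-22 replicate 2, and 541 CPM, in DM-22 replicate 1. Proximal tubule markers were also lowest in C replicate 2 (7669 CPM) and DM-22 replicate 1 (8455 CPM). In whole-kidney RNA, fewer cells of a type and less RNA per cell cannot be told apart, and the part of cell composition in the P450 totals was not tested.

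Of the 68 members, 50 had at least 1 CPM in at least 2 libraries and were tested, 26 of Cyp2, 15 of Cyp4 and 9 of the other families. The 18 members below this level did not exceed 1.49 CPM in any library. They include genes whose main site is liver, such as Cyp3a11 (0.0550 to 0.215 CPM) and Cyp2c29 (0 to 0.162 CPM). Cyp8b1, a liver enzyme of bile acid synthesis, stood at 0.0733, 0.0421 and 0.107 CPM in C, 0.018 and 0.208 CPM in DM-22, and 0.0391 and 0.163 CPM in DM+SGLT2i, no more than 9 reads in any library. Cyp11a1, the steroid side-chain cleavage enzyme of the adrenal gland, stood at 0.0916, 0 and 0.0214 CPM in C, 0.144 and 0.0231 CPM in DM-22, and 0.0979 and 0.127 CPM in DM+SGLT2i. Cyp17a1, needed for androgen synthesis, stood at 0.44, 0.105 and 0.0214 CPM in C, 1.49 and 0.0925 CPM in DM-22, and 0.235 and 0.379 CPM in DM+SGLT2i, with 83 reads in DM-22 replicate 1 and at most 24 in any other library. The adrenal markers Star, Hsd3b1, Mc2r and Akr1b7 summed to 3.01 CPM in that library, the lowest of the 7 sums. Of these markers only Akr1b7 (1.30 CPM) was itself lowest in it, and Cyp11a1 was highest in it. The part of adrenal tissue in the Cyp17a1 value was not tested. Among retinoic acid hydroxylases below the level, Cyp26a1 stood at 1.08, 0.421 and 0.662 CPM in C, 0.468 and 0.601 CPM in DM-22, and 0.274 and 0.632 CPM in DM+SGLT2i. Cyp26c1 stood at 0, 0.147 and 0.15 CPM in C, 0.018 and 0 CPM in DM-22, and 0.0391 and 0.0361 CPM in DM+SGLT2i, in each case 7 reads or fewer.

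Per kilobase of exon, Cyp4b1 had the highest mean level of all members, at 1430 CPM per kb over the 7 libraries (range 187 to 2968). Cyp2j5 followed at 605 CPM per kb (501 to 698) and Cyp2e1 at 551 (99.0 to 1109), and these ranges overlapped with each other and with that of Cyp4b1. Cyp2a4 (412 CPM per kb) and Cyp4a10 (408 CPM per kb) came next, then Cyp4a31 at 203 CPM per kb. In the other families the order was Cyp7b1 (68.6 CPM per kb, range 9.59 to 163), Cyp27a1 (22.8, range 17.2 to 28.2) and Cyp20a1 (9.12, range 7.80 to 10.9), and only the ranges of the last pair did not overlap.

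P450 genes differed more between mice of the same group than genes at large did. Among the 50 tested members the median absolute log2 difference between C replicates 2 and 8 was 0.997, against 0.41 over all 13976 genes, and 50% of members differed by more than 1, against 15.6% of all genes. Between the DM-22 mice the median was 0.65 for members and 0.27 for all genes, with 32% and 10.1% over 1. Between the DM+SGLT2i mice the medians were 0.26 and 0.20, with 6% and 2.09% over 1. C replicates 8 and 9 were the closest pair, with medians of 0.15 and 0.11. The excess of P450 genes over all genes was thus present in each group and was larger where the mice differed more.

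**Figure D1:**
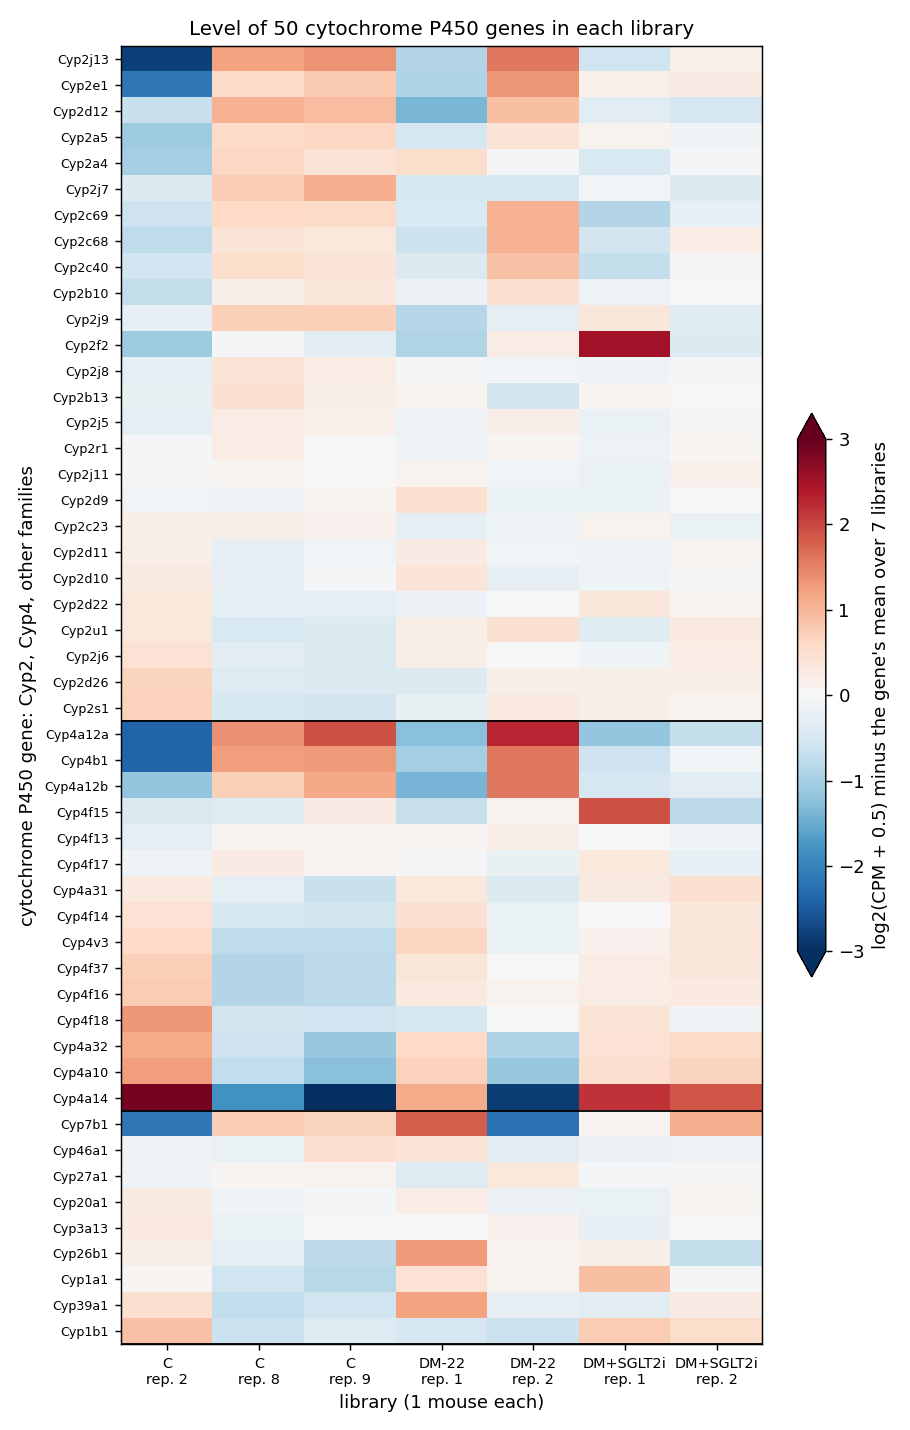
Levels of the 50 tested P450 genes (rows, by family) in the 7 libraries (columns), as log2(CPM + 0.5) minus the gene's mean over libraries, with colours ending at 3 in either direction. Cyp4b1, Cyp4a12a, Cyp4a12b, Cyp2j13 and Cyp2e1 are blue and Cyp4a14 is red in C replicate 2 and DM-22 replicate 1, and the colours are reversed in C replicates 8 and 9 and DM-22 replicate 2.

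Neighbouring Cyp4 genes on chromosome 4 went opposite ways between mice. A run of 8 members lies between positions 115106323 and 115647723 of this chromosome (GRCm38), in the order Cyp4x1, Cyp4a12a, Cyp4a12b, Cyp4a14, Cyp4a10, Cyp4a31, Cyp4a32 and Cyp4b1, and all but Cyp4x1 (at most 0.128 CPM) were tested. Cyp4b1, which hydroxylates short fatty acids and activates some toxins, stood at 422, 5344 and 5444 CPM in C, 1110 and 6695 CPM in DM-22, and 1461 and 2101 CPM in DM+SGLT2i. It was low in C replicate 2 and DM-22 replicate 1 and high in their group mates, so that the groups overlapped. Cyp4a12a, the androgen-dependent arachidonic acid hydroxylase, stood at 16.1, 225 and 326 CPM in C, 36.0 and 424 CPM in DM-22, and 38.5 and 52.4 CPM in DM+SGLT2i. Its neighbour Cyp4a12b stood at 26.9, 102 and 136 CPM in C, 23.2 and 186 CPM in DM-22, and 43.4 and 50.1 CPM in DM+SGLT2i. These near-identical genes had the same low and high libraries as Cyp4b1.

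Cyp4a14, a fatty acid hydroxylase induced by PPAR alpha, had the reverse pattern. It stood at 957, 36.6 and 12.4 CPM in C, 279.7 and 17.6 CPM in DM-22, and 581 and 469.9 CPM in DM+SGLT2i, a 77.1-fold range over the 7 libraries and the widest of the tested members. Cyp4a10 stood at 1700, 423 and 299 CPM in C, 1149 and 324 CPM in DM-22, and 1007 and 1122 CPM in DM+SGLT2i. Cyp4a32 moved with it, at 292, 87.7 and 61.2 CPM in C, 204 and 70.7 CPM in DM-22, and 184 and 204 CPM in DM+SGLT2i. Cyp4a31, between these genes on the chromosome, varied least, at 602, 398 and 309.8 CPM in C, 609.7 and 365 CPM in DM-22, and 586 and 688 CPM in DM+SGLT2i. Cyp4a10, Cyp4a31 and Cyp4a32 are close copies, and so are Cyp4a12a and Cyp4a12b, so their division of shared reads is uncertain.

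**Figure D2:**
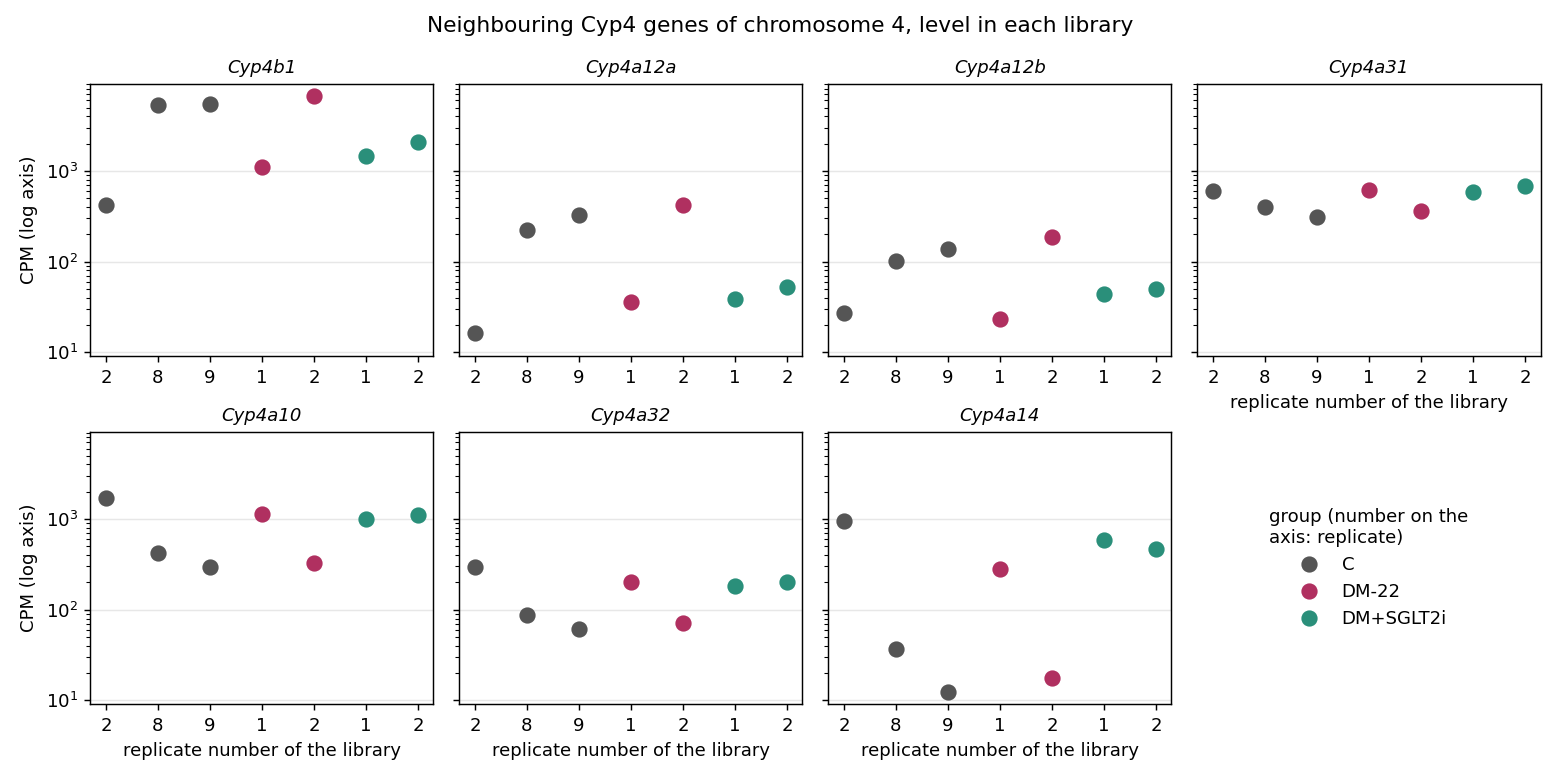
CPM (log axis) of the 7 tested Cyp4 genes of the chromosome 4 run, 1 panel per gene and 1 point per library, coloured by group with replicate numbers below. In C and DM-22, points for Cyp4b1, Cyp4a12a and Cyp4a12b lie low where those for Cyp4a10, Cyp4a32 and Cyp4a14 lie high, and both DM+SGLT2i libraries lie between the extremes of the controls for all 6.

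Cyp2 genes took part in the same division of mice, mainly on the side of Cyp4b1. Cyp2j13, a gene of the Cyp2j run on chromosome 4, stood at 26.7, 433 and 481 CPM in C, 102 and 570.5 CPM in DM-22, and 125 and 209.6 CPM in DM+SGLT2i. Cyp2e1, the ethanol and ketone oxidase, stood at 214, 1404 and 1649 CPM in C, 502 and 2392 CPM in DM-22, and 1048 and 1121 CPM in DM+SGLT2i. Cyp2d12 stood at 70.5, 235 and 214 CPM in C, 43.0 and 210.3 CPM in DM-22, and 90.9 and 79.2 CPM in DM+SGLT2i. Each was lowest in C replicate 2 or DM-22 replicate 1, and none of the 3 separated the groups.

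The Cyp2c genes printed above varied alike at low levels, 8 to 161 reads per library. They are neighbours with closely similar upstream bases, and the division of any shared reads between them was not assessed. Cyp2c69 stood at 0.825, 2.57 and 2.56 CPM in C, 0.990 and 3.72 CPM in DM-22, and 0.607 and 1.21 CPM in DM+SGLT2i. Cyp2c68 ranged from 0.330 CPM in C replicate 2 to 2.40 CPM in DM-22 replicate 2, and Cyp2c40 from 0.254 CPM in DM+SGLT2i replicate 1 to 1.78 CPM in DM-22 replicate 2. Cyp2c67, below the level for testing, ranged from 0.147 CPM in C replicate 2 to 1.30 CPM in DM-22 replicate 2. Hnf4a stood at 532, 1242 and 1200 CPM in C, 728 and 1240 CPM in DM-22, and 816 and 707 CPM in DM+SGLT2i. Hnf4a was low in the same 4 libraries as these Cyp2c genes, and its part in their levels was not tested.

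Position did not fix the direction. On chromosome 4 the Cyp2j run holds both Cyp2j13 and Cyp2j11, a gene that stood between 191 and 243 CPM in every library, and Cyp2j5, the main renal arachidonic acid epoxygenase of that subfamily. Cyp2j5 stood at 1175, 1638 and 1562 CPM in C, 1273 and 1621 CPM in DM-22, and 1218 and 1449 CPM in DM+SGLT2i, lowest in C replicate 2 with overlapping groups. In the Cyp2d run of chromosome 15, C replicate 2 differed from the mean of the other controls by -1.66 on the log2 scale for Cyp2d12 and by 1.07 for Cyp2d26. Cyp2d26 stood at 256, 123 and 119.7 CPM in C, 121 and 181 CPM in DM-22, and 182 and 183 CPM in DM+SGLT2i. Cyp2d9, known in liver as a male-specific testosterone hydroxylase, stood at 256, 252 and 279.6 CPM in C, 379.9 and 235 CPM in DM-22, and 234 and 272 CPM in DM+SGLT2i, with DM-22 replicate 1 above all others. Cyp2a4 and Cyp2a5 on chromosome 7, a steroid and a coumarin hydroxylase with closely similar sequences, were both lowest in C replicate 2 but differed in DM-22. Cyp2a4 stood at 334, 1030 and 892 CPM in C, 968 and 652 CPM in DM-22, and 491 and 644 CPM in DM+SGLT2i. Cyp2a5 was lower in DM-22 replicate 1 (262 CPM) than in replicate 2 (495 CPM), the reverse of Cyp2a4.

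Across the 50 members, the difference of C replicate 2 from the mean of the other controls and the difference of DM-22 replicate 1 from replicate 2, which share no library, correlated with a Pearson's r of 0.65 and a Spearman's rho of 0.61. Over all 13976 genes r was 0.40 and rho 0.34. Within Cyp4 r was 0.94 (15 genes), within Cyp2 0.66 (26 genes) and within the other families -0.70 (9 genes), where rho was -0.17. Genes are not independent replicates, and no test was made of these values. Both differences were below -1 for 9 members, 6 of Cyp2 and 3 of Cyp4, and above 1 for 4 members, Cyp4a10, Cyp4a14, Cyp4a32 and Cyp39a1.

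**Figure D3:**
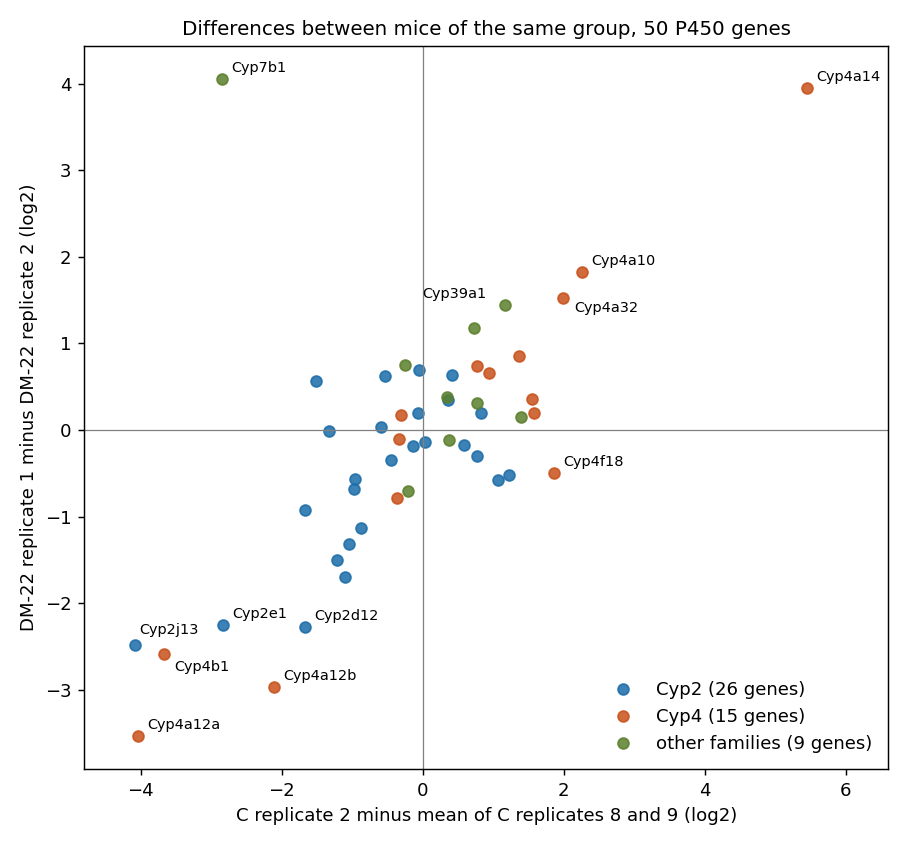
Each point is 1 of the 50 tested P450 genes, coloured by family, with the log2 difference of C replicate 2 from the mean of C replicates 8 and 9 on the horizontal axis and that of DM-22 replicate 1 from replicate 2 on the vertical axis. Cyp4 genes run along a rising line from Cyp4a12a to Cyp4a14, and Cyp7b1 lies alone at the upper left.

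Some of the kidney genes known to differ between the sexes were low or high in the same libraries. Slco1a1, an organic anion transporter higher in males, stood at 2.69, 297 and 390 CPM in C, 50.9 and 443 CPM in DM-22, and 35.1 and 55.6 CPM in DM+SGLT2i. Kap, the androgen-regulated kidney protein, stood at 2090, 17570 and 16870 CPM in C, 12470 and 19040 CPM in DM-22, and 5808 and 10640 CPM in DM+SGLT2i, so that DM-22 replicate 1 lay above both DM+SGLT2i libraries. All 6 male-biased genes listed were lower in C replicate 2 than in the other controls, but Acsm3 and Slc7a13 were higher in DM-22 replicate 1 (499 and 680.5 CPM) than in replicate 2 (401 and 602.5 CPM), the reverse of Cyp4 and Cyp2 totals. Among genes higher in females, Slc7a12 stood at 105, 13 and 6.71 CPM in C, 62.9 and 2.10 CPM in DM-22, and 50.1 and 48.5 CPM in DM+SGLT2i. Prlr and Abcc3 were likewise highest in C replicate 2 or DM+SGLT2i replicate 1, while the remaining gene of that list, Slc22a7, was lowest in C replicate 2 (10.8 CPM). The part of androgen action in the P450 levels was not tested.

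In the diabetic kidneys no P450 gene passed an adjusted p of 0.05 against controls (limma, Benjamini-Hochberg over 13976 genes, smallest adjusted p = 0.804), where 0.00% of all genes passed. At an unadjusted p under 0.05, 0 members were higher and 2 were lower, against 1.19% of all genes higher and 3.28% lower, and limma voom on recovered reads gave 0 adjusted calls, 0 higher and 1 lower. The lower members were the epoxygenases Cyp2c23 and Cyp2j9. Cyp2c23, also known as Cyp2c44 and the main Cyp2c epoxygenase of mouse kidney, stood at 41.4, 40.9 and 39.7 CPM in C, 30.2 and 33.4 CPM in DM-22, and 39.2 and 31.6 CPM in DM+SGLT2i. Both DM-22 values lay below all controls (log2 fold change -0.35, SE 0.14), but without C replicate 2 its unadjusted p no longer passed (log2 fold change -0.34). Cyp2j9 stood at 6.36, 12.9 and 12.8 CPM in C, 3.98 and 6.10 CPM in DM-22, and 9.73 and 5.65 CPM in DM+SGLT2i. Its log2 fold change was -0.97 (SE 0.39), and -1.29 (SE 0.30) without C replicate 2. Leaving out C replicate 8, C replicate 9 or DM-22 replicate 1 ended both calls, with log2 fold changes of -0.35, -0.37 and -0.28 for Cyp2c23 and of -0.81, -0.82 and -0.69 for Cyp2j9. Leaving out DM-22 replicate 2 also ended the call of Cyp2c23 (-0.43).

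Without C replicate 2, 8 members were higher and 2 lower in DM-22 at an unadjusted p under 0.05, 20% of the 50, against 10.4% of all genes higher and 14.8% lower, and none of the members passed after adjustment (smallest limma adjusted p = 0.0826; 0.0143% of all genes passed). The higher members were Cyp1a1, Cyp26b1, Cyp2j6, Cyp2s1, Cyp2u1, Cyp4f16, Cyp4f37 and Cyp4v3, and the lower ones Cyp2j7 and Cyp2j9. Cyp4f16 stood at 21.8, 6.67 and 7.18 CPM in C, 15.7 and 13.6 CPM in DM-22, and 14.9 and 15.8 CPM in DM+SGLT2i. It was thus higher in all 4 diabetic libraries than in C replicates 8 and 9, and highest of all in C replicate 2. The log2 fold change in DM-22 was 0.50 (SE 0.48) with all controls and 1.03 (SE 0.15) without C replicate 2. Cyp4f37 and Cyp4v3, the latter the mouse gene of CYP4V2, which is mutated in a crystalline retinal dystrophy, were also highest among controls in C replicate 2. Cyp4f37 stood at 4.18, 1.05 and 1.15 CPM in C, 3.13 and 2.34 CPM in DM-22, and 2.82 and 3.07 CPM in DM+SGLT2i. Cyp4v3 stood at 18.9, 7.03 and 7.01 CPM in C, 19.4 and 10.5 CPM in DM-22, and 13.4 and 16 CPM in DM+SGLT2i.

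Cyp2j7, Cyp2u1 and Cyp2s1 also lay apart between DM-22 and C replicates 8 and 9. Cyp2j7 stood at 0.916, 2.67 and 3.50 CPM in C, 0.846 and 0.856 CPM in DM-22, and 1.27 and 0.921 CPM in DM+SGLT2i, a log2 fold change in DM-22 of -1.40 (SE 0.25) without C replicate 2 and -0.96 (SE 0.46) with it. Cyp2u1, a fatty acid hydroxylase, stood at 5.63, 3.05 and 3.16 CPM in C, 5.00 and 6.27 CPM in DM-22, and 3.29 and 5.46 CPM in DM+SGLT2i. Its value in DM+SGLT2i replicate 1 was thus near those of C replicates 8 and 9. Cyp2s1 stood at 44.7, 19.3 and 18.4 CPM in C, 23.3 and 33.7 CPM in DM-22, and 30.8 and 29.2 CPM in DM+SGLT2i. For these genes C replicate 2 was level with or beyond the diabetic mice.

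Against controls, the DM+SGLT2i kidneys had 0 members past an adjusted p of 0.05 (smallest adjusted p = 1 by limma, with 0.00% of all genes), and 0 higher and 0 lower at an unadjusted p under 0.05, against 0.665% and 0.415% of all genes. Voom gave the same 3 counts of 0. Without C replicate 2, 13 members were higher and 2 lower at an unadjusted p under 0.05, 30% of the 50, against 8.73% and 9.14% of all genes. None passed after adjustment (smallest limma adjusted p = 0.0724, for Cyp4f16 and Cyp1b1; 0.122% of all genes passed). Of the 15 Cyp4 genes, 7 were among the higher ones: Cyp4a10, Cyp4a14, Cyp4a31, Cyp4a32, Cyp4f16, Cyp4f37 and Cyp4v3. Cyp4a14 was higher by 4.58 (SE 1.24) on the log2 scale without C replicate 2 and by 2.76 (SE 1.91) with all controls. Cyp4a10 was higher by 1.58 (SE 0.58) and 0.83 (SE 0.83), while Cyp4a12a had values of -2.58 (SE 1.06) and -1.23 (SE 1.48) and passed in neither. Cyp2d22, Cyp2d26, Cyp2j6 and Cyp2s1 of Cyp2 and Cyp1a1 and Cyp1b1 of the other families were also higher, and Cyp2a4 (-0.77, SE 0.27) and Cyp2j7 (-1.17, SE 0.25) were lower. In the same fit without C replicate 2, 6 of 6 tubular injury, 3 of 4 macrophage and 3 of 4 fibroblast markers were also higher at an unadjusted p under 0.05, and their part in the P450 differences was not tested. The comparisons with controls share their control libraries, so members named in both are not separate evidence.

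Set directly against DM-22, the DM+SGLT2i kidneys had 1 member higher and 0 lower at an unadjusted p under 0.05, against 2.25% and 1.66% of all genes, and none after adjustment (smallest limma adjusted p = 0.881; 0.00% of all genes), with the same counts by voom. The gene was Cyp1b1, which hydroxylates estrogens and polycyclic hydrocarbons and is expressed in mesenchymal cells. Cyp1b1 stood at 73.2, 25.2 and 29.96 CPM in C, 27.7 and 24.8 CPM in DM-22, and 67.7 and 56.8 CPM in DM+SGLT2i. Both DM+SGLT2i values lay above both DM-22 values (log2 fold change 1.23, SE 0.47), and C replicate 2 was higher than either. The 4 fibroblast markers summed to 510.1, 137 and 177 CPM in C, 174 and 121 CPM in DM-22, and 396 and 305 CPM in DM+SGLT2i, high in the same libraries as Cyp1b1. Their part in the Cyp1b1 difference was not tested. Leaving out any 1 of the 4 diabetic libraries ended this call.

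Cyp1a1, the standard target of the aryl hydrocarbon receptor, stood at 1.36, 0.674 and 0.513 CPM in C, 1.91 and 1.43 CPM in DM-22, and 2.84 and 1.21 CPM in DM+SGLT2i. Both DM-22 values lay above all controls, 1 of them only just (62 reads in DM-22 replicate 2, 74 in C replicate 2). The log2 fold change of 0.73 (SE 0.41) did not pass the test. Without C replicate 2 the difference was 0.98 (SE 0.38) in DM-22 and 1.13 (SE 0.38) in DM+SGLT2i. Ahr itself ranged from 6.66 CPM in DM-22 replicate 2 to 12.1 CPM in DM+SGLT2i replicate 1, and the groups overlapped. Cyp1a1 and Cyp1b1 hold the core GCGTG in the runs printed above, as do 28.2% of all windows.

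Between families, the median log2 fold change in DM-22 was 0.09 for Cyp2, 0.17 for Cyp4 and 0.03 for the other families, against 0.00 over all genes. Without C replicate 2 the Cyp2 median changed sign to -0.15, and that of Cyp4 was 0.42. In DM+SGLT2i against controls the medians were -0.08 for Cyp2, 0.56 for Cyp4 and 0.01 for the rest, and -0.28, 0.72 and 0.00 without C replicate 2, against -0.01 and -0.02 over all genes. For DM+SGLT2i against DM-22 they were -0.05, 0.10 and -0.10. Within Cyp4 the single values ran from -2.58 for Cyp4a12a to 4.58 for Cyp4a14 without C replicate 2, so the positive median covers genes that went opposite ways. Differences between families were not tested.

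**Figure D4:**
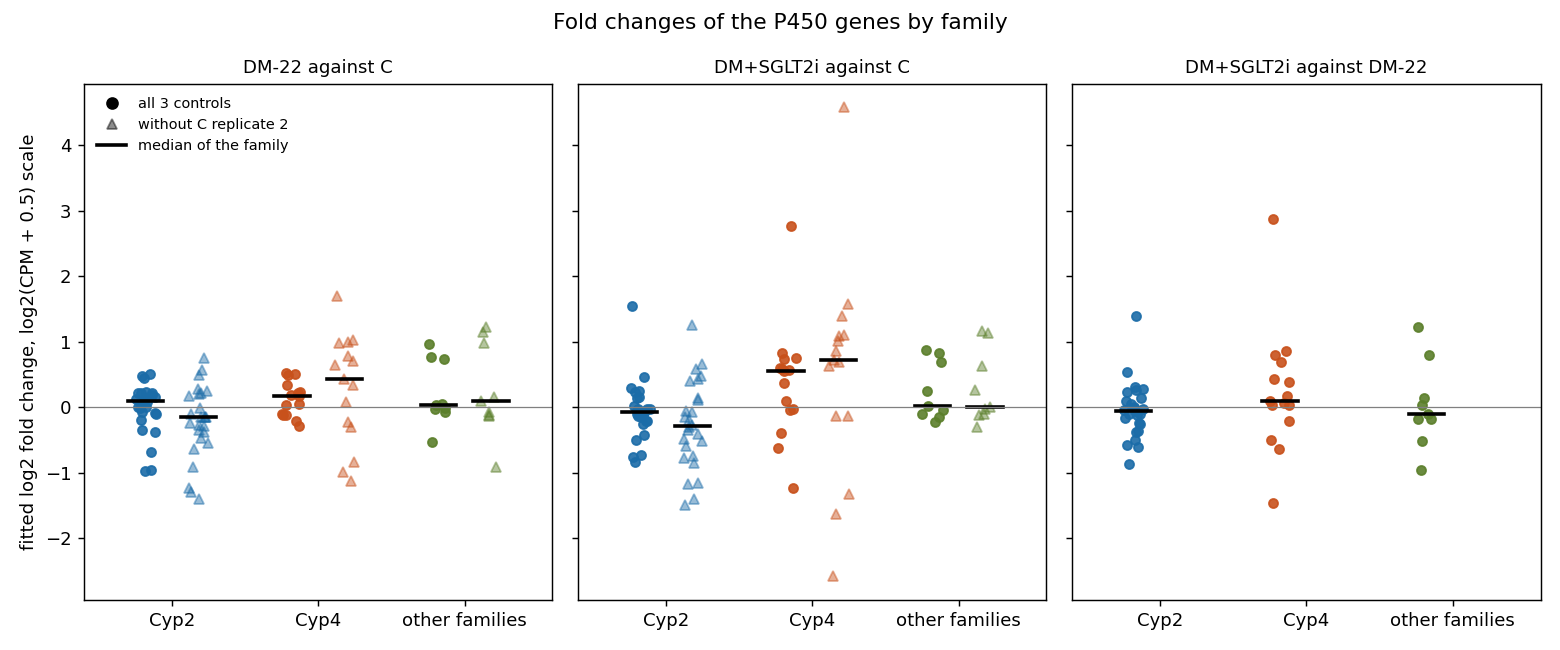
Fitted log2 fold changes (vertical axis, log2(CPM + 0.5) scale) of the 50 tested P450 genes by family in the 3 comparisons, with all controls (circles) and without C replicate 2 (triangles), and the median of each family as a bar. Cyp4 spreads from -2.58 to 4.58 in DM+SGLT2i against C without C replicate 2, and in the same comparison Cyp2 lies between -1.49 and 1.25 and the other families between -0.30 and 1.16.

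Several sterol and retinoid genes of the other families stood highest in DM-22 replicate 1. Cyp7b1, the oxysterol hydroxylase that also acts on DHEA, stood at 22.1, 166 and 158 CPM in C, 354 and 20.8 CPM in DM-22, and 105 and 213 CPM in DM+SGLT2i. The 17.0-fold range of Cyp7b1 set the DM-22 mice at opposite ends, and in C replicate 2 and DM-22 replicate 2 the gene was equally low, unlike the Cyp4 genes. Cyp26b1, a retinoic acid hydroxylase, stood at 26.4, 18.8 and 13.1 CPM in C, 56.1 and 24.5 CPM in DM-22, and 25.7 and 13.8 CPM in DM+SGLT2i. Cyp39a1, another oxysterol hydroxylase, was likewise highest in DM-22 replicate 1, at 18.5, 7.56 and 8.4 CPM in C, 30.6 and 10.9 CPM in DM-22, and 10.2 and 15.6 CPM in DM+SGLT2i. The 4 markers of the thick ascending limb summed to 12920 CPM in that library and to 3294 to 7056 CPM in the others. Umod and Slc12a1 were highest in it, but Kcnj1 and Cldn16 (394 and 14.15 CPM) were higher in C replicate 2 (416.5 and 23.57 CPM). Collecting duct markers summed to 1020 CPM in DM-22 replicate 1 against 434 to 850.5 CPM. Aqp2 (640 CPM), Aqp3 and Avpr2 were highest in it. Scnn1g and Slc4a1 were higher in C replicate 2, and Atp6v1g3 (26.85 CPM) was lowest in DM-22 replicate 1. The part of these segments in the P450 values was not tested.

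Cyp27a1, the mitochondrial sterol hydroxylase, was steadier, at 45.4, 52.2 and 53.1 CPM in C, 37.3 and 61.2 CPM in DM-22, and 47.5 and 50.4 CPM in DM+SGLT2i, with both the lowest and the highest value in DM-22. Cyp46a1, known for cholesterol turnover in brain, stood at 1.48, 1.35 and 2.52 CPM in C, 2.32 and 1.18 CPM in DM-22, and 1.39 and 1.45 CPM in DM+SGLT2i. Cyp20a1, a gene without a settled substrate, stood at 24.9, 19 and 20.2 CPM in C, 24.1 and 18.4 CPM in DM-22, and 17.8 and 21.6 CPM in DM+SGLT2i, highest in C replicate 2. Cyp2r1, a vitamin D hydroxylase, stood at 1.41, 1.79 and 1.43 CPM in C, 1.28 and 1.53 CPM in DM-22, and 1.27 and 1.54 CPM in DM+SGLT2i. Cyp4f14, a leukotriene hydroxylase, was high with Cyp4a10 in C replicate 2 and DM-22 replicate 1, at 4.47, 2.15 and 2.03 CPM in C, 4.61 and 2.73 CPM in DM-22, and 3.21 and 4.16 CPM in DM+SGLT2i. None of these 5 genes passed an unadjusted p of 0.05 in any comparison with either set of controls.

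**Figure D5:**
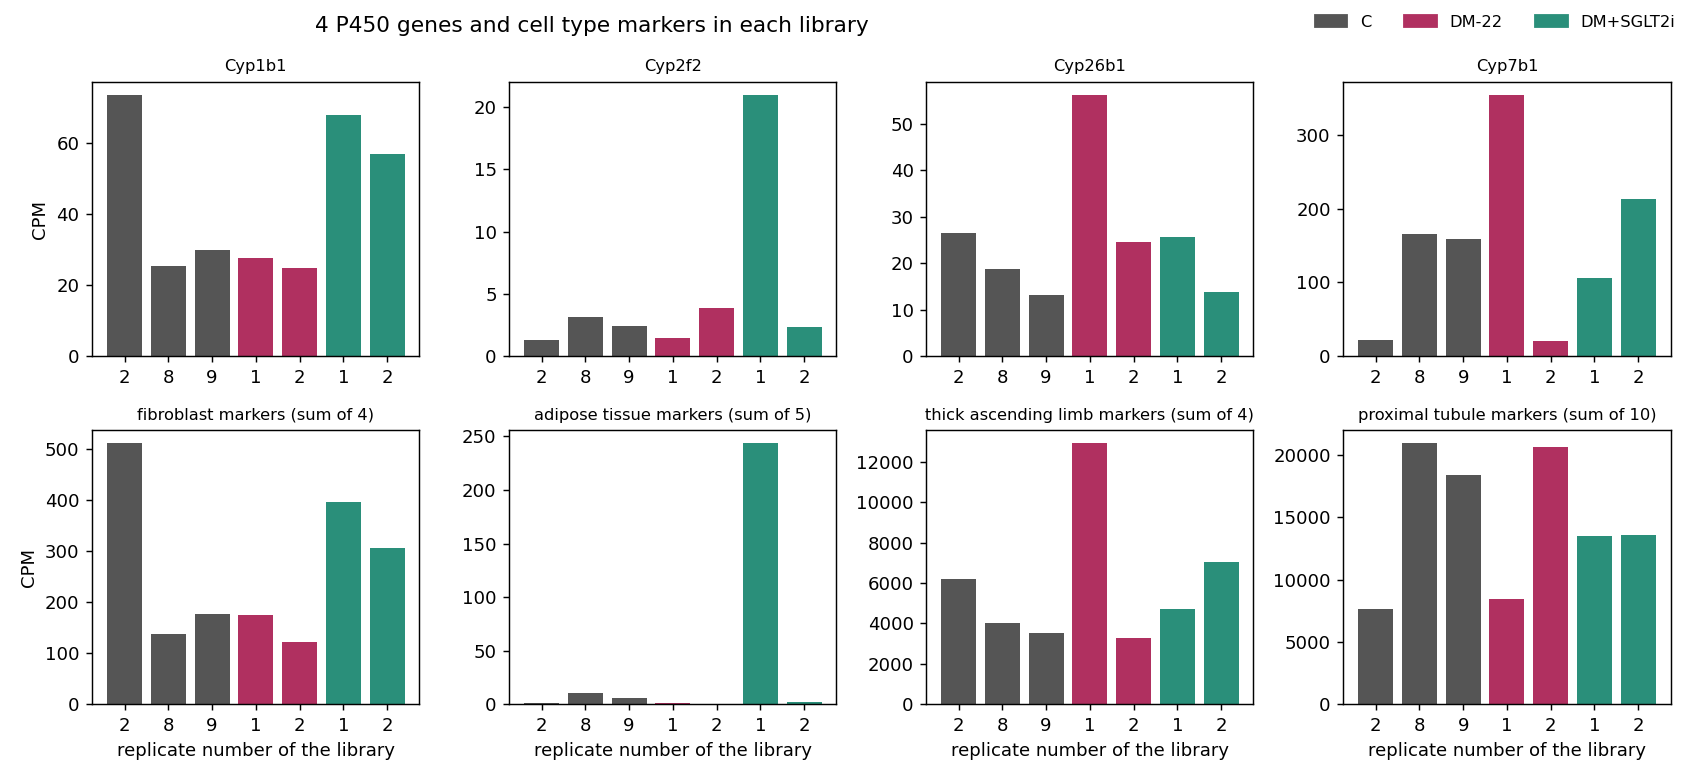
CPM of Cyp1b1, Cyp2f2, Cyp26b1 and Cyp7b1 (upper row) and summed CPM of markers of 4 cell types (lower row) in each library, as bars from 0 coloured by group. Cyp1b1 and fibroblast markers are high in C replicate 2 and both DM+SGLT2i libraries, and Cyp2f2 and adipose markers in DM+SGLT2i replicate 1. Cyp26b1 and the thick ascending limb sum, set mainly by Umod and Slc12a1, are high in DM-22 replicate 1.

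Single libraries carried further members. Cyp2f2, the naphthalene-activating enzyme of airway club cells, stood at 20.9 CPM in DM+SGLT2i replicate 1 and at 1.28 to 3.88 CPM in the others, and Cyp4f15 at 6.22 CPM there against 0.542 to 1.62 CPM. In that library the 5 adipose markers summed to 243 CPM against 0.486 to 10.9 CPM, with Adipoq at 76.0 CPM, and the 6 urothelium markers to 146 CPM against 2.36 to 61.8 CPM. Cyp4f18, a leukotriene hydroxylase of neutrophils, stood at 4.29 CPM in C replicate 2 and at 0.791 to 2.09 CPM elsewhere, beside 4 macrophage markers that summed to 237 CPM against 80.7 to 160.4 CPM. The part of other tissue or cells in these values was not tested. The 6 liver markers listed summed to 286 to 1064 CPM, mostly Ttr and Serpina1a, and Alb stood at 8.10 to 14.4 CPM in all libraries.

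Of 10 electron transfer partners of the P450 enzymes tested, 2 were higher in DM-22 at an unadjusted p under 0.05 and 0 lower, against 1.19% and 3.28% of all genes, with a list median of 0.20 against 0.00 over all genes. Cyb5r3, a cytochrome b5 reductase, stood at 249, 200 and 176 CPM in C, 278 and 296 CPM in DM-22, and 238 and 276 CPM in DM+SGLT2i (log2 fold change in DM-22 0.48, SE 0.19). Pgrmc2, a heme chaperone, had a log2 fold change of 0.34 (SE 0.13). Por stood at 384.7, 506 and 456 CPM in C, 324 and 384.5 CPM in DM-22, and 412 and 388 CPM in DM+SGLT2i. Both DM-22 values of Por lay below all controls, 1 of them only just, and its values overlapped between DM+SGLT2i and C. In DM+SGLT2i, 0 of the 10 partners passed against controls or DM-22 at that level. Without C replicate 2, 4 were higher and 1, Por, was lower in DM-22, against 10.4% and 14.8% of all genes. In DM+SGLT2i 2 were higher and 0 lower, against 8.73% and 9.14%.

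Among 12 genes of heme synthesis and breakdown, only the heme oxygenase Hmox1 passed at an unadjusted p under 0.05 with all 3 controls. It was higher in both diabetic groups, against 1.19% of all genes in DM-22 and 0.665% in DM+SGLT2i. When C replicate 2 was left out, Hmox1 and Urod were higher and Ppox lower in DM-22, against 10.4% and 14.8% of all genes. In DM+SGLT2i, Hmox1 was higher and Fech and Ppox lower, against 8.73% and 9.14%. Hmox1 stood at 47.0, 33.4 and 39.4 CPM in C, 67.5 and 78.8 CPM in DM-22, and 51.0 and 62.3 CPM in DM+SGLT2i, with log2 fold changes of 0.88 (SE 0.19) and 0.51 (SE 0.19). All 4 diabetic values lay above all 3 controls. Among 20 transcription factors tested, Nr1i2, the xenobiotic receptor PXR, was lower in DM-22 and Rxrb higher, against 3.28% and 1.19% of all genes. Nr1i2 stood at 5.39, 9.41 and 8.14 CPM in C, 2.21 and 4.35 CPM in DM-22, and 8.30 and 5.78 CPM in DM+SGLT2i (log2 fold change -1.13 with SE 0.35 in DM-22, and 1.04 with SE 0.38 for DM+SGLT2i against DM-22). In that last comparison 1 factor was higher and 2 were lower, against 2.25% and 1.66% of all genes, and in DM+SGLT2i against C 0 passed. Without C replicate 2, 1 factor was higher and 7 were lower in DM-22, and 0 and 4 in DM+SGLT2i. None of these genes passed after adjustment by limma.

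Non-P450 targets of PPAR alpha had another order of libraries than Cyp4a14. Of 19 tested, 0 were higher or lower in DM-22 at an unadjusted p under 0.05, and 3 were higher in DM+SGLT2i against C, Angptl4 and Acot2 among them, against 0.665% of all genes, with list medians of 0.16 and 0.12. Without C replicate 2, 3 were higher and 0 lower in DM-22, and 4 higher and 1 lower in DM+SGLT2i, against the shares of all genes given above for that fit. The 20 genes of the list summed to 4685 CPM in C replicate 2, the library with the most Cyp4a14, and to 5848 to 6474 CPM in the others. Of 13 other eicosanoid genes tested, 0 passed in any of the 3 comparisons with all controls. In the fit without C replicate 2, Alox12, Ephx1 and Ptgs1 were higher in DM-22 and Ephx1, Ptgs1 and Ptges in DM+SGLT2i, 3 of 13 in each against 10.4% and 8.73% of all genes, with 0 lower. Clock genes, known to drive daily rhythms of P450 genes, had 3 of 14 higher and 5 lower in DM-22, against 1.19% and 3.28% of all genes, and 2 higher and 2 lower in DM+SGLT2i against C, against 0.665% and 0.415%. The counts without C replicate 2 were 3 higher and 7 lower in DM-22, against 10.4% and 14.8% of all genes. In DM+SGLT2i they were 1 higher and 4 lower, against 8.73% and 9.14%. The hour at which each kidney was taken is not given in the sources used here, and the part of sampling time in the P450 values was not tested.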

How the data were processed

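Kidney RNA of 7 mice had been sequenced by the authors from polyadenylated RNA with a directional kit. Per the labels, reads were trimmed and checked (Trim Galore, FastQC), aligned with STAR to mm10 (GRCm38) and normalised with edgeR, with versions not given in the sources used here. The deposited values are log2 CPM per gene after TMM scaling with a small prior, already limited to genes with at least 10 reads in total. Columns of per-sample values that were not used number 0. After undoing the log and subtracting the floor (-4.66 on the log2 scale), 100.0% of values gave whole reads within 0.02.

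The planned design assumed CPM. As the values are log2, the 13976 genes that reached 1 CPM in 2 or more libraries were fitted with limma 3.58.1 (R 4.3.3, lmFit and eBayes with trend) on log2(CPM + 0.5), all 3 groups in 1 fit without covariates. Fold changes on this scale understate changes of low genes. P-values were two-sided and adjusted by Benjamini-Hochberg over all genes tested. The threshold was 0.05, and each comparison was repeated without C replicate 2. The code was tested on simulated data. Members, gene lists and motifs were chosen with earlier results of these data known. Values in every library are given for members at an unadjusted p under 0.05 with all controls, for the 3 members with the highest level per length in each family group and for members of set roles, and any other member may be named. Exon lengths and positions came from GENCODE M21, in which all 17537 identifiers were found, and promoters from RefSeq, read with pandas 2.3.3. Alternatives were voom weights, pseudocounts of 2 and 0.1, no filter, median-ratio scaling, fits of 2 groups, a replicate block and the omission of each library.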

Additional observations from a re-analysis of the deposited data

How the results depend on the processing

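No P450 gene passed an adjusted p of 0.05 by limma under any of the alternatives. The number of members lower in DM-22 than C at an unadjusted p under 0.05 went from 2 to 1 with voom (Cyp2c23) and to 1 with median-ratio scaling (Cyp2j9). Without the filter, 1 member was lower in DM+SGLT2i than C (Cyp2j12, under 1 CPM in all libraries). With 1 library left out at a time, members higher in DM-22 than C ranged from 0 to 8 and lower ones from 0 to 2, with 8 higher without C replicate 2 and 3 higher without DM-22 replicate 2. Members higher in DM+SGLT2i than C ranged from 0 to 13 and lower ones from 0 to 2, with 13 higher and 2 lower without C replicate 2 and 3 higher without DM+SGLT2i replicate 2 (Cyp1a1, Cyp2f2 and Cyp4f15). For DM+SGLT2i against DM-22 the ranges were 0 to 2 higher and 0 to 2 lower. Where a group was left with 1 library, it was assumed to vary like the others.

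A replicate block on the numbers shared by the diabetic groups gave 2 members higher and 1 lower for DM+SGLT2i against DM-22, but the labels share a number only, and the deviations of same-numbered libraries were uncorrelated (Pearson's r -0.041 across genes).

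Only a chosen part of the log2 fold changes was followed over the alternatives, and leaving out libraries turned 7 of these. Others outside that part turned too. In DM-22 against C, Cyp4a12a went from 0.22 to -1.12 without C replicate 2, Cyp2e1 from 0.47 to -0.47 and Cyp2j13 from 0.44 to -0.92. Among the 7, that of Cyp4b1 in DM-22 against C ranged from -1.06 (without DM-22 replicate 2) to 1.54 (without DM-22 replicate 1). It was -0.98 without C replicate 2. In DM+SGLT2i it ranged against C from -1.62 (without C replicate 2) to 0.22 (without C replicate 9), with 0.21 without C replicate 8, and against DM-22 from -1.93 to 0.66 (without DM-22 replicates 1 and 2 in turn). Cyp4a14 in DM-22 ranged from -2.09 (without DM-22 replicate 1) to 1.86 (without DM-22 replicate 2) and was 1.70 without C replicate 2. Cyp2s1 in DM-22 ranged from -0.11 (without DM-22 replicate 2) to 0.56 (without C replicate 2). In DM+SGLT2i against C, Cyp2j6 ranged from -0.014 to 0.44 and Cyp2a4 from -0.77 to 0.043. Of the 459 values followed, the other 446 kept their direction, and the cause of the turns was not tested. The groups of 3, 2 and 2 mice limit all comparisons.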
